A study of Ovis aries with 8 samples.

Results

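The mitochondrial genome of sheep carries 13 protein-coding genes in the RefSeq annotation of ARS-UI_Ramb_v3.0, and 10 of them are described here. They are *ND1*, *ND2*, *ND3*, *ND4* and *ND5* of respiratory complex I, *CYTB* of complex III, *COX1*, *COX2* and *COX3* of complex IV, and *ATP6* of the ATP synthase. The members were taken as a fixed list of symbols, all 10 were present among the 11247 genes of the deposited count table, and all 10 passed the filter on low counts that left 9779 genes tested. Of the remaining 3, *ND6* was also in the table and is given as a neighbour, and *ND4L* and *ATP8* were not analysed here.

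The counts came from the longissimus thoracis muscle of castrated Dorper x Santa Inês crossbred lambs (*Ovis aries*). The 4 CON lambs ate the control diet and the 4 SM20 lambs ate a diet in which soybean molasses, a sugar-rich by-product of soy protein processing, made up 20%. They were drawn at random from a feeding trial of 20 lambs, 10 per diet, and each library is 1 lamb. The labels and design text give no age for them. The comparison asks how the molasses diet altered the muscle transcriptome, and the present account is limited to the transcripts made inside mitochondria.

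The protein-coding genes of mitochondrial DNA encode only hydrophobic core subunits of the respiratory chain and of the ATP synthase. Most partner subunits of these are made from nuclear genes and imported. In mammals the heavy strand is transcribed into long precursors in which transfer RNAs lie between most of the messenger RNAs, and cutting out the transfer RNAs releases the individual messengers. These then receive short poly(A) tails, so a poly-A library captures them. The levels of the mature messengers can differ widely although they start on shared precursors, because each is cut, tailed and degraded on its own. In muscle these messengers are abundant, and oxidative fibres hold more mitochondria than glycolytic ones.

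Library totals ran from 8675527 to 11210065 counts. Of the skeletal muscle markers 9 of 10 were in the table, with summed levels of 99010 to 153120 CPM in CON and 122480 to 123970 CPM in SM20. CPM is a count relative to the library total after correction by TMM factors. For SM20 against CON 5 of the 9 had negative and 4 positive log2 fold changes, and 0 passed over all genes by edgeR. DESeq2 called 1 higher in SM20, *NEB*, beside 446 of 7101 genes called in either direction. Markers of adipocytes, endothelium, fibroblasts, macrophages and smooth muscle each had summed levels that overlapped between the diets. Of the erythrocyte markers 2 of 6 were in the table and 0 passed the filter. Of 7 early-response and heat-shock genes, which respond to tissue stress, 4 were positive and 3 negative for SM20 against CON, with a median log2 fold change of 0.59. An unadjusted p under 0.05 was reached by 3, all higher in SM20, and 0 passed over all genes by edgeR or DESeq2. The share of all tested genes higher at that unadjusted cut was not counted, so the 3 cannot be set against it. *FOS*, an early-response transcription factor, was at 4.17 to 18.1 CPM in CON and at 5.16, 294.2, 54.9 and 21.1 CPM in SM20 lambs 1 to 4. *EGR1*, another, had a log2 fold change of 1.71 ± 0.63 (SE) and the co-chaperone *DNAJB1* 0.59 ± 0.22 (adjusted p = 0.185 and 0.195 by edgeR). The part of such genes in the results below was not tested. Reads of mitochondrial messengers that also match nuclear copies of mitochondrial DNA may have been assigned to either.

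The 10 genes together made up 9.35%, 10.9%, 9.95% and 7.57% of all counts in CON lambs 1 to 4. In SM20 lambs 1 to 4 they made up 6.01%, 8.11%, 6.51% and 6.80%. The mean share was 9.45 ± 1.41% in CON and 6.86 ± 0.90% in SM20 (SD, n = 4 per diet), a difference of -2.59 percentage points. CON lambs 1 to 3 lay above every SM20 lamb, and CON lamb 4 lay below SM20 lamb 2, so the diets overlapped. Counting error was small beside these differences, since the Wilson 95% interval of a single library's share was 0.0290 to 0.0381 percentage points wide. That interval covers counting error only, because reads without molecular identifiers are not independent molecules. In bulk muscle, fewer mitochondria-rich fibres and less mitochondrial messenger per fibre cannot be told apart.

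The log2 fold change of SM20 against CON was negative for all 10 genes, at a median of -0.41, although *ND5* was at -0.03 and turned to 0.016 when libraries were scaled by their totals alone. Over all 9779 tested genes the median was 0.0055 and 49.3% were negative. By edgeR's quasi-likelihood test with Benjamini-Hochberg adjustment 0 of the 10 passed an adjusted p of 0.05, against 0.0511% of all tested genes called in either direction and 0.0102% called lower. At an unadjusted p under 0.05, 3 were lower (*COX1*, *COX3* and *ATP6*), against 8.45% of all genes. That count was 7 of the 10 with upper-quartile scaling, beside 1041 of all 9779 genes. By DESeq2 it was also 7, beside 708 genes lower at the same unadjusted cut. The total behind the 708 is not given here, so no share stands beside that 7. DESeq2 called 2 of the 10 lower, *COX3* and *COX1*, against 2.69% of the genes to which it gave an adjusted p. Without CON lambs 1 and 2, left out after their levels had been seen to be the highest, which lowers the CON mean by construction, 7 of the 10 were negative and the median was -0.16. Without CON lamb 2 alone the median was -0.27, and without CON lamb 4 it was -0.58.

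**Figure D1:**
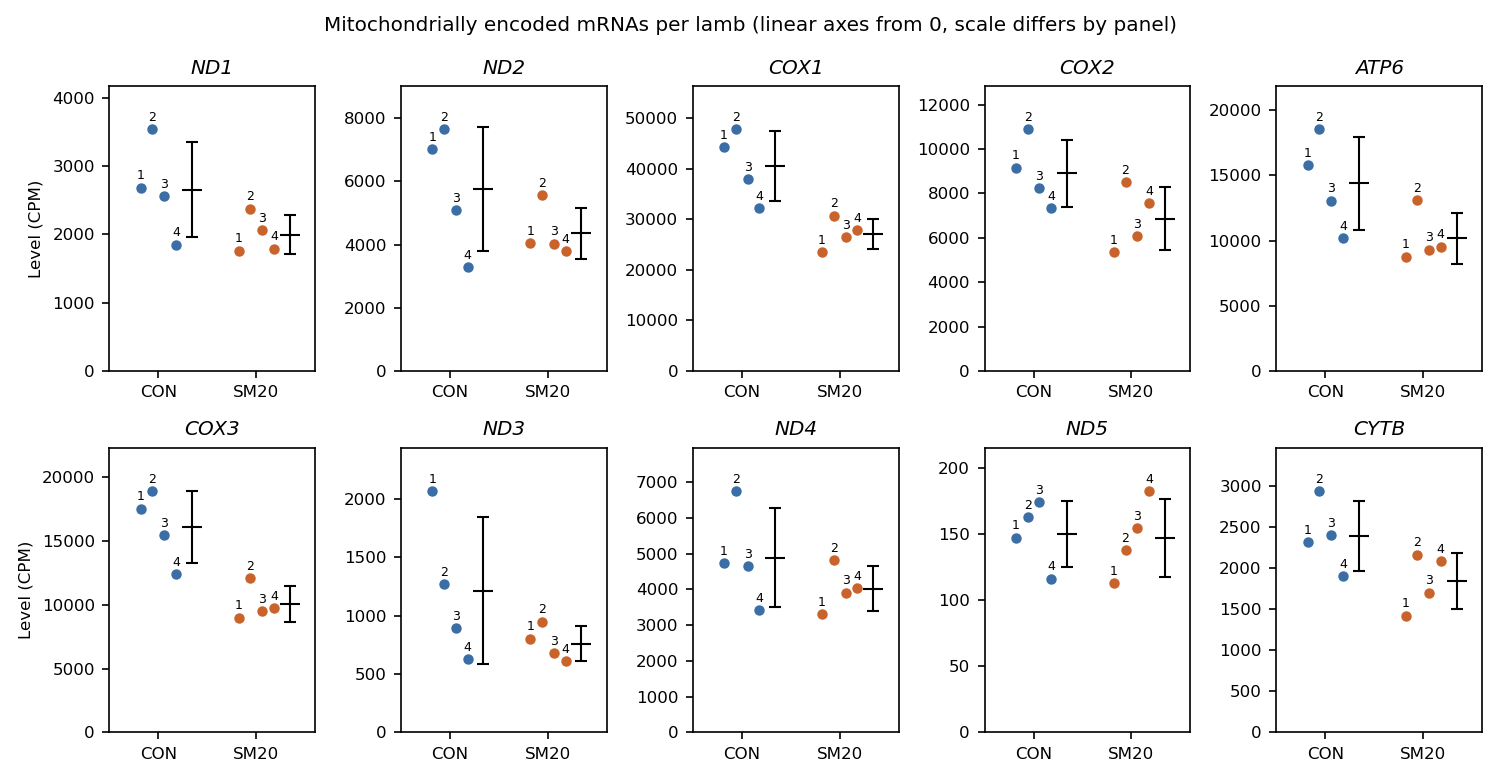
Level of each of the 10 mitochondrially encoded genes (vertical axes, CPM on a linear scale from 0) in every lamb, numbered 1 to 4 within each diet, with the mean and SD of 4 lambs beside the points. For *COX1* and *COX3* every SM20 lamb sits below every CON lamb, and for the other 8 genes the diets overlap.

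Complex IV, cytochrome c oxidase, passes electrons to oxygen, and its 3 mitochondrially encoded subunits form the catalytic core. *COX1*, the subunit that holds the haem-copper centre, was at 44335, 47791, 38010 and 32202 CPM in CON lambs 1 to 4. In SM20 lambs 1 to 4 it was at 23536, 30755, 26474 and 27794 CPM. All SM20 lambs were below all CON lambs, the log2 fold change was -0.58 ± 0.17 (SE) and the adjusted p was 0.124 by edgeR and 0.0159 by DESeq2. *COX1* alone took 3.32% to 4.40% of a CON library and 2.43% to 3.10% of an SM20 library.

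*COX3*, the third core subunit, which holds no metal centre, was at 17542, 18932, 15466 and 12433 CPM in CON lambs 1 to 4. It was at 8988, 12114, 9486 and 9738 CPM in SM20 lambs 1 to 4. These ranges did not overlap either, the gap being between CON lamb 4 and SM20 lamb 2. The log2 fold change of -0.67 ± 0.17 (SE) had the smallest adjusted p among the 10 genes, 0.107 by edgeR and 0.00624 by DESeq2. Among all tested genes 5.67% were lower in SM20 without overlap, against 2 of these 10. With any 1 lamb left out, *COX3* ran from -0.79 to -0.60 and *COX1* from -0.68 to -0.50.

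*COX2*, which takes up electrons from cytochrome c, showed a smaller difference and overlapping diets. It was at 9168, 10884, 8225 and 7325 CPM in CON lambs 1 to 4 and at 5343, 8515, 6062 and 7552 CPM in SM20 lambs 1 to 4. SM20 lambs 2 and 4 were above CON lamb 4, and the log2 fold change was -0.37 ± 0.18 (SE, adjusted p = 0.305 by edgeR).

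*ATP6* encodes the subunit of the ATP synthase that forms the path for protons through the membrane. Its levels were 15796, 18526, 13052 and 10179 CPM in CON lambs 1 to 4 and 8773, 13092, 9310 and 9534 CPM in SM20 lambs 1 to 4. CON lambs 1 and 2 were above every SM20 lamb, and SM20 lamb 2 stood just above CON lamb 3. The log2 fold change was -0.50 ± 0.20 (SE, adjusted p = 0.232 by edgeR).

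*CYTB* encodes cytochrome b, the subunit of complex III that carries both of its quinone sites. It was at 2323, 2945, 2403 and 1907 CPM in CON lambs 1 to 4 and at 1425, 2167, 1705 and 2090.4 CPM in SM20 lambs 1 to 4. The first 3 CON lambs were above every SM20 lamb, while CON lamb 4 fell within the SM20 range. The log2 fold change was -0.37 ± 0.18 (SE, adjusted p = 0.290 by edgeR).

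Complex I oxidises NADH, and the ND genes encode its membrane arm, where protons are pumped. *ND1*, which lies where the membrane arm meets the matrix arm, was at 2683, 3539, 2556 and 1853 CPM in CON lambs 1 to 4 and at 1761, 2380.1, 2062 and 1792 CPM in SM20 lambs 1 to 4. Its log2 fold change was -0.41 ± 0.19 (SE), with the first 3 CON lambs above every SM20 lamb. Without CON lamb 2 it was -0.25. *ND2*, one of the pumping subunits, had -0.40 ± 0.25 (SE) and ran from 3284 to 7641 CPM in CON and from 3780.0 to 5563 CPM in SM20, so that the CON lambs spanned the SM20 lambs on both sides. The *ND2* value was also -0.25 without CON lamb 2. The adjusted p by edgeR was 0.288 for *ND1* and 0.406 for *ND2*.

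*ND4*, another pumping subunit, was at 4727, 6755, 4642 and 3423 CPM in CON lambs 1 to 4 and at 3306, 4828, 3910.2 and 4040.4 CPM in SM20 lambs 1 to 4. Apart from CON lamb 2, the CON and SM20 lambs covered nearly the same range. Its log2 fold change of -0.28 ± 0.20 (SE, adjusted p = 0.495 by edgeR) was -0.094 without CON lamb 2, and leaving out CON lamb 4 gave -0.42.

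*ND5*, the pumping subunit at the far end of the membrane arm, differed least between the diets. It was at 147.3, 162.7, 173.8 and 116.3 CPM in CON lambs 1 to 4 and at 112.6, 137.7, 154.5 and 182.6 CPM in SM20 lambs 1 to 4. Both the lowest and the highest lamb were SM20 lambs. The log2 fold change was -0.03 ± 0.17 (SE, adjusted p = 0.946 by edgeR), which places the difference within the spread between lambs. These levels rest on 1115 to 1837 counts per library, so depth was not the limit.

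*ND3*, a small complex I subunit near the quinone site, had a log2 fold change of -0.67 ± 0.31 (SE, adjusted p = 0.281 by edgeR), about as large as that of *COX3* but with the widest error of the 10. It was at 2067, 1269, 891.3 and 624.6 CPM in CON lambs 1 to 4 and at 803.9, 948.3, 678.4 and 612.2 CPM in SM20 lambs 1 to 4. CON lamb 1 was far above all other lambs and without it the log2 fold change was -0.29. The coefficient of variation among CON lambs was 51.8% for *ND3*, against 16.7% to 34.3% for the other 9 genes.

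*ND6*, the one protein-coding gene of the light strand, gives a messenger that in human mitochondria lacks a long poly(A) tail. It held 29 to 56 counts per library here. It was at 4.30, 5.23, 5.38 and 3.65 CPM in CON lambs 1 to 4 and at 3.66, 3.37, 3.28 and 3.38 CPM in SM20 lambs 1 to 4. Its log2 fold change of -0.44 ± 0.21 (SE, adjusted p = 0.288 by edgeR) lay close to the median of the 10. Whether the counting used strand is not given in the sources used here, so reads of *ND6* and of precursors of the opposite strand may not have been told apart.

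**Figure D2:**
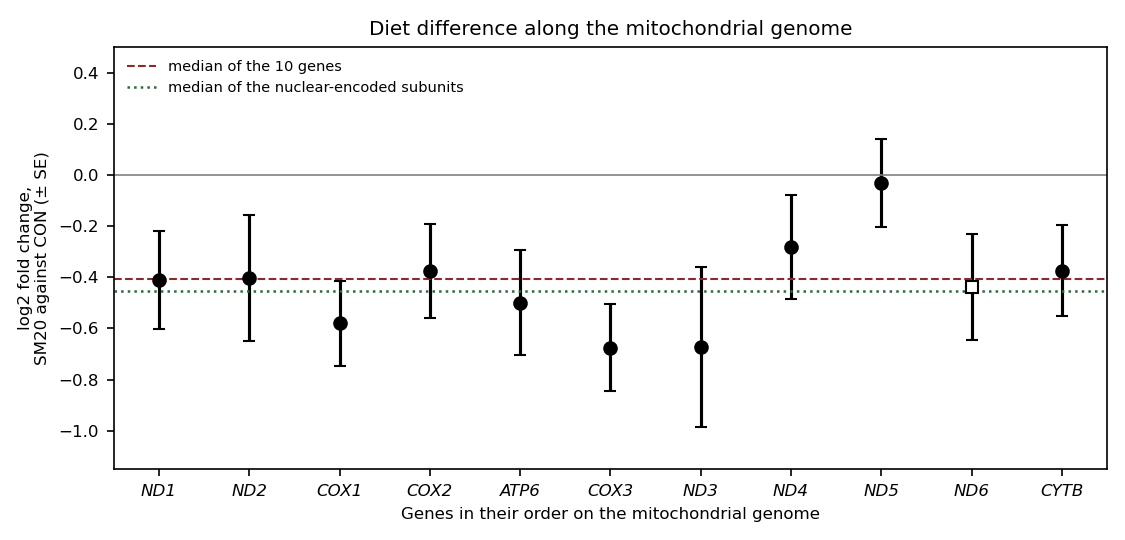
Log2 fold change of SM20 against CON with its SE (vertical axis, 4 lambs per diet) for the mitochondrially encoded genes in the order of the annotation (horizontal axis); the open square is *ND6* of the light strand. The dashed line is the median of the 10 genes (-0.41) and the dotted line that of 59 nuclear-encoded subunits (-0.45); *ND5* lies at -0.03 (0.016 with library size alone) and *COX3* at -0.67.

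In the annotation the 10 genes follow each other as *ND1*, *ND2*, *COX1*, *COX2*, *ATP6*, *COX3*, *ND3*, *ND4*, *ND5* and *CYTB*, and the size of the diet difference followed no steady course along that order. *COX3* and *ND3*, which adjoin with a transfer RNA gene between them, had the most negative values of the 10. The place of *ND3* rests on CON lamb 1. Without that lamb *ND3* was at -0.29, less negative than *COX1* (-0.53), *ATP6* (-0.45) and *ND1* (-0.41). With all lambs, *ND4* and *ND5*, further along, had the values nearest to 0, and *CYTB* at the end was at -0.37 again. *ATP6* and *COX3* are direct neighbours without a transfer RNA between them, and *ATP6* was at -0.50 beside -0.67.

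The lambs differed in a similar way in most of the 10 genes. CON lamb 2 had the highest level of 8 genes, CON lamb 1 that of *ND3* and SM20 lamb 4 that of *ND5*. SM20 lamb 1 had the lowest level of 8 genes. CON lamb 4 lay below the highest SM20 lamb in 8 genes, against 2 for CON lamb 1, 1 for CON lamb 2 and 6 for CON lamb 3. Across the 8 lambs the log2 level of *COX3* followed that of *COX1* with a Pearson correlation of 0.99, while *ND5* had 0.37 with *COX1*. These values describe 8 libraries that share their scaling, and they include the diet difference.

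The make-up of the mitochondrial counts was examined next, since a ratio of 2 genes within a library is free of scaling between libraries. The shares below are shares of reads, not of molecules, because the genes differ in length. *COX3* held 16.6%, 16.0%, 17.1% and 17.0% of the counts of the 10 genes in CON lambs 1 to 4. In SM20 lambs 1 to 4 it held 15.5%, 15.0%, 14.9% and 14.5%. It was the one gene of the 10 whose share did not overlap between the diets, with means of 16.7 ± 0.49% and 15.0 ± 0.40% (SD, n = 4 per diet).

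*ND4* held 4.47%, 5.70%, 5.13% and 4.67% in CON lambs 1 to 4 and 5.69%, 5.997%, 6.12% and 6.02% in SM20 lambs 1 to 4. Only CON lamb 2 reached the SM20 range. *ND5* held 0.157 ± 0.025% in CON and 0.220 ± 0.046% in SM20 (SD, n = 4 per diet), with CON lamb 3 inside the SM20 range. The share of *COX1*, the largest, was 42.0 ± 1.46% in CON and 40.4 ± 1.52% in SM20 and overlapped. *COX2* held 9.23 ± 0.55% and 10.1 ± 0.96%, also with overlap.

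**Figure D3:**
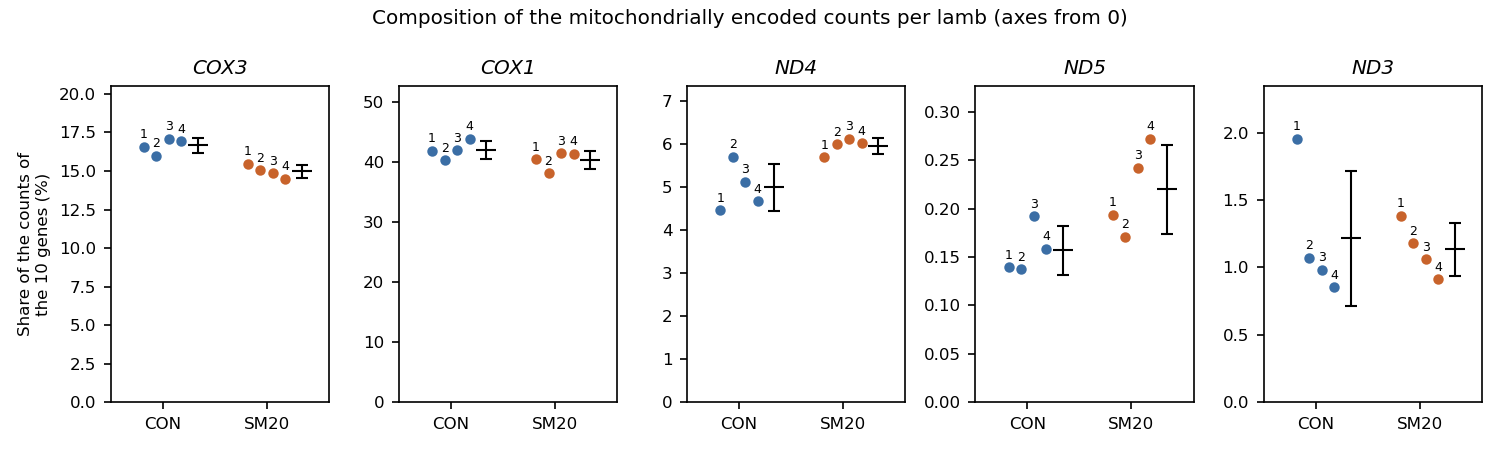
Share of the counts of the 10 genes (vertical axes, percent, from 0) held by *COX3*, *COX1*, *ND4*, *ND5* and *ND3* in every lamb, numbered 1 to 4 within each diet, with mean and SD of 4 lambs. *COX3* runs from 16.0% to 17.1% in CON and from 14.5% to 15.5% in SM20; CON lamb 1 stands apart for *ND3* at 1.95%.

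Of the 45 pairs that the 10 genes form, 5 had count ratios that did not overlap between the diets, which is 11.1%. Over all pairs of tested genes with no 0 count it was 9.45%, and over pairs of the 674 genes with a mean CPM no lower than that of *ND5* it was 19.0%, so the members' share is no larger than that among genes with as many counts. *COX3* was in 4 of the 5 pairs. The ratio of *COX3* to *ND4* was 3.37 ± 0.41 in CON and 2.52 ± 0.14 in SM20, and that of *COX3* to *ND5* was 107.9 ± 13.6 and 70.6 ± 16.0 (SD, n = 4 per diet). *COX3* to *CYTB* had 6.73 ± 0.55 and 5.53 ± 0.68, *COX2* to *COX3* 0.555 ± 0.032 and 0.678 ± 0.079, and *ATP6* to *ND4* 2.97 ± 0.27 and 2.53 ± 0.18. The pairs share genes and are not independent of each other, and no test was made on them.

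A set of 11 ratios, 7 within the mitochondrial genome and 4 to a nuclear-encoded subunit of the same complex, was tested by exact two-sided permutation of the 8 lambs. With 70 assignments the smallest p is 0.0286, and 0 of the 11 reached it. The ratio of *COX3* to its neighbour *ATP6* came nearest, at 1.11, 1.02, 1.19 and 1.22 in CON lambs 1 to 4 and at 1.02, 0.925, 1.02 and 1.02 in SM20 lambs 1 to 4. CON lamb 2 was within the SM20 range for this ratio, and the difference of -0.18 on the log2 scale had an exact permutation p of 0.0571, or 0.314 after Benjamini-Hochberg adjustment over the 11. *COX1* to *COX2* fell short as well (4.56 ± 0.21 in CON, 4.02 ± 0.43 in SM20), as did *CYTB* to *COX1* (0.0591 ± 0.0048 and 0.0677 ± 0.0065), each with an exact permutation p of 0.0857 and an adjusted p of 0.314.

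The ratio of *COX1* to *ND1* averaged 15.6 ± 1.73 in CON and 13.7 ± 1.26 in SM20 (exact permutation p = 0.114, adjusted p = 0.314). *ND1* to *ND5* averaged 17.7 ± 3.10 and 14.02 ± 3.24 (exact permutation p = 0.171, adjusted p = 0.377). *ND2* to *ND1* was 2.13 ± 0.36 and 2.17 ± 0.18 (exact permutation p = 0.800). *ND3* to *ND4* was 0.437 in CON lamb 1 and 0.182 to 0.192 in the other CON lambs, against 0.152 to 0.243 in SM20 (exact permutation p = 0.514). Its log2 difference of -0.30 became 0.0064 without CON lamb 1.

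Nuclear-encoded subunits of complexes I, III, IV and V had fold changes of a size similar to those of the mitochondrially encoded ones. Of 59 tested, 59 were negative on the log2 scale, and their median was -0.45. By complex it was -0.45 for 31 subunits of complex I, -0.58 for 8 of complex III, -0.51 for 7 of complex IV and -0.43 for 13 of complex V. By edgeR 0 of the 59 passed over all genes and 50 had an unadjusted p under 0.05, against 0.0102% and 8.45% of all tested genes. DESeq2 called 34 of them lower, against 2.69% of the genes it gave an adjusted p. *SDHC* of complex II, a complex made of nuclear-encoded subunits alone, had -0.32 ± 0.15 (SE, adjusted p = 0.295 by edgeR).

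The summed level of the 59 nuclear-encoded subunits was 28069, 20820, 22693 and 24507 CPM in CON lambs 1 to 4 and 18093, 17302, 16914 and 18816 CPM in SM20 lambs 1 to 4. The diets did not overlap in this sum. The sum of the 10 mitochondrially encoded genes was 105800, 118440, 90504 and 73346 CPM in CON lambs 1 to 4 and 58098, 80499, 63865 and 67115 CPM in SM20 lambs 1 to 4, and here they did. Within a diet the 2 sums ordered the lambs differently: CON lamb 2 was highest of the CON lambs in the mitochondrial and lowest in the nuclear sum, and CON lamb 4 was lowest in the mitochondrial and second highest in the nuclear sum.

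**Figure D4:**
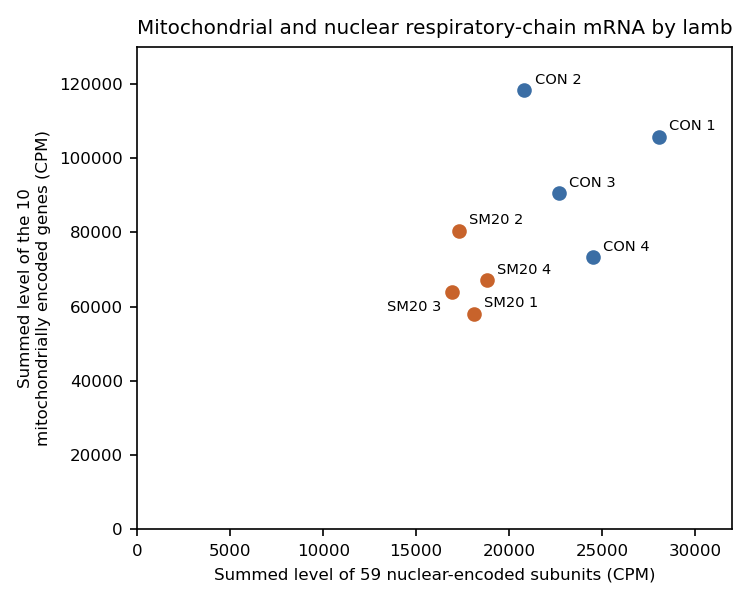
Summed level of the 10 mitochondrially encoded genes (vertical axis, CPM) against that of 59 nuclear-encoded subunits of complexes I, III, IV and V (horizontal axis, CPM), 1 point per lamb, both axes linear from 0. All SM20 lambs lie left of all CON lambs (16914 to 18816 against 20820 to 28069 CPM), while on the vertical axis CON lamb 4 at 73346 CPM lies below SM20 lamb 2 at 80499 CPM.

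The 4 ratios of a mitochondrially encoded gene to a nuclear-encoded subunit of its own complex varied widely between lambs. *COX1* to *COX4I1*, the regulatory subunit of complex IV, was 36.4, 56.8, 42.6 and 33.2 in CON lambs 1 to 4 and 32.4, 43.5, 41.0 and 41.4 in SM20 lambs 1 to 4. The diets overlapped throughout, with a log2 difference of -0.073 (exact permutation p = 0.714). *ATP6* to *ATP5F1D*, a subunit of the catalytic head of the ATP synthase, was 35.0 ± 10.9 in CON and 37.8 ± 7.27 in SM20 (exact permutation p = 0.629). *CYTB* to *UQCRC1*, a core protein of complex III, was 3.28 ± 1.04 and 3.72 ± 0.84 (exact permutation p = 0.486).

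*ND1* to *NDUFV1*, the NADH-binding subunit, showed the largest log2 difference of the 4, with ratios of 5.13 ± 2.003 in CON and 6.82 ± 1.57 in SM20 (exact permutation p = 0.229, adjusted p = 0.419). The log2 difference was 0.46, and it ran from 0.29 to 0.69 with 1 lamb left out. *NDUFV1* itself averaged 538.0 ± 92.7 CPM in the CON lambs and 299.9 ± 46.9 CPM in the SM20 lambs. Its log2 fold change was -0.84, beside -0.41 for *ND1*. The median of the 31 nuclear-encoded complex I subunits was -0.45, so *NDUFV1* is not typical of them and the ratio depends on the partner chosen.

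Genes that copy and express mitochondrial DNA are nuclear-encoded, and 0 of those listed here passed over all genes by edgeR. Of 14 genes of mitochondrial DNA maintenance 10 were negative, with a median log2 fold change of -0.16. *TFAM*, which packages mitochondrial DNA and starts its transcription, had a positive fold change. It was at 8.49, 8.91, 12.2 and 11.9 CPM in CON lambs 1 to 4 and at 13.1, 16.2, 13.1 and 20.5 CPM in SM20 lambs 1 to 4, so that all SM20 lambs were above all CON lambs. Its log2 fold change was 0.60 ± 0.20 (SE, adjusted p = 0.160 by edgeR and 0.0800 by DESeq2). *POLG*, the catalytic subunit of the mitochondrial DNA polymerase, had -0.24 ± 0.14 (SE) and *RNASEH1*, which removes RNA from RNA-DNA hybrids, -0.27 ± 0.13, with *RNASEH1* lower in SM20 without overlap. Their adjusted p by edgeR was 0.370 and 0.296.

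Of 6 transcription factors and terminators of mitochondria 3 were negative and 3 positive, with a median of 0.011. *TFB2M*, which opens the promoter for the polymerase, averaged 41.5 ± 3.95 CPM in the CON lambs and 40.0 ± 1.84 CPM in the SM20 lambs (adjusted p = 0.846 by edgeR). *TEFM*, the elongation factor, had a log2 fold change of -0.31 ± 0.23 (SE) and *MTERF1*, a termination factor, 0.49 ± 0.27. The gene of the polymerase itself was not analysed here.

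Of 18 genes that cut, tail, stabilise or degrade mitochondrial RNA 9 were negative and 9 positive, with a median of 0.0071. *FASTK*, whose mitochondrial isoform is required for *ND6* messenger in mammalian cells, averaged 120.9 ± 19.1 CPM in the CON lambs and 78.8 ± 5.64 CPM in the SM20 lambs, with a log2 fold change of -0.62 ± 0.13 (SE, adjusted p = 0.0873 by edgeR and 0.00466 by DESeq2). *HSD17B10*, a subunit of the enzyme that cuts the 5′ ends of transfer RNAs from the precursors, had -0.47 ± 0.14 (adjusted p = 0.136 by edgeR). *GRSF1*, an RNA-granule protein that binds mitochondrial transcripts, was higher in SM20 without overlap, with 59.8 ± 6.64 CPM in the CON lambs and 80.6 ± 9.33 CPM in the SM20 lambs (log2 fold change 0.43 ± 0.13 SE, adjusted p = 0.134 by edgeR). DESeq2 called 1 gene of this list, *FASTK*.

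Translation and membrane insertion of the mitochondrially encoded proteins was covered by 12 genes, of which 11 were negative with a median of -0.18. *TUFM*, the elongation factor that brings transfer RNAs to the mitochondrial ribosome, had -0.40 ± 0.12 (SE, adjusted p = 0.135 by edgeR and 0.0481 by DESeq2) and *MTIF3*, an initiation factor, -0.30 ± 0.11 (adjusted p = 0.180 by edgeR). Of 14 assembly factors of complex IV 14 were negative, with a median of -0.26. *COX14*, which accompanies newly made COX1 protein, averaged 42.6 ± 4.10 CPM in the CON lambs and 30.4 ± 1.44 CPM in the SM20 lambs (log2 fold change -0.49 ± 0.12 SE, adjusted p = 0.107 by edgeR and 0.0120 by DESeq2). *COX20*, which accompanies COX2 protein, had -0.43 ± 0.16 (adjusted p = 0.183 by edgeR). *COA1* had -0.64 ± 0.19 (adjusted p = 0.134 by edgeR and 0.0481 by DESeq2) and *PET100* -0.47 ± 0.15 (adjusted p = 0.149 by edgeR). DESeq2 called 2 of the 14 lower, *COX14* and *COA1*, against 2.69% of the genes it gave an adjusted p.

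Slow-fibre marker genes, which mark oxidative fibres, also had negative fold changes. Of 10 tested 10 were negative, with a median of -0.50, and 0 passed over all genes by edgeR or DESeq2. Their summed level was 49260, 32315, 28090 and 22811 CPM in CON lambs 1 to 4 and 29938, 24085, 22608 and 23114 CPM in SM20 lambs 1 to 4. CON lambs 1 and 2 were highest and CON lamb 4 lowest of the CON lambs, an order close to that of the mitochondrial sum, but SM20 lamb 1 had the highest slow-fibre and the lowest mitochondrial sum of its diet. The diets overlapped in this sum. They also overlapped in the sum of the fast-fibre list, at 115460 to 157840 CPM in CON and 130850 to 156400 CPM in SM20, where 6 of 8 genes were negative with a median of -0.11. Of 8 other genes of mitochondrial membranes, matrix and import 6 were negative, with a median of -0.12. The part of fibre type in the difference of the mitochondrially encoded genes was not tested.

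The genes outside the lists whose log2 level over the 8 lambs was most like the mean log2 level of the 10 were *CCDC17*, a coiled-coil protein, *EXOSC1*, a subunit of the RNA exosome, *EIF1AX*, a translation initiation factor, *PSENEN*, a subunit of gamma-secretase, and *HPS1*, a protein of lysosome-related organelles. Their Pearson correlations were 0.92 to 0.93 and their Spearman correlations 0.74 to 0.98. They were picked as the highest of 9536 genes and carry no test. Without CON lambs 1 and 2, the lambs farthest from the median, the Pearson correlations were 0.71 to 0.85.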

How the data were processed

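For 8 libraries the authors deposited unnormalized read counts by gene symbol. The submitters' processing notes name Trim Galore, cutadapt, STAR, featureCounts and DESeq2. Tool versions, genome build, annotation, strand setting and the handling of reads that also match nuclear copies of mitochondrial DNA are facts not given in the sources used here. Libraries were made from poly-A RNA with a stranded kit, per the labels' protocols. As the build is unknown, positions are left out; the order of the genes and the symbols (10761 of 11247 matched) were taken from the RefSeq annotation of ARS-UI_Ramb_v3.0.

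Counts of all genes were fitted with edgeR 4.0.16 (R 4.3.3; quasi-likelihood F-test, diet as the only term, TMM factors, default expression filter with a minimum count of 10), and p-values were two-sided and adjusted over 9779 genes by Benjamini-Hochberg with a threshold of 0.05. The filter removed 0.0735% of the counts. SE values were derived from the F statistic (log2 fold change over the root of F). CPM are relative to TMM-scaled library sizes and not to gene length, so levels are not compared between genes; 1 cut on mean CPM was used only to select genes with as many counts as the members. Ratios used unscaled counts and exact permutation tests (SciPy 1.17.1). DESeq2 1.42.0, other scalings, no filter and leaving out lambs were alternatives. Libraries were grouped by the diet label, and replicate numbers follow accession order. Beside the members, up to 4 genes per list were named by smallest p, with *TFAM* and the genes of the ratios, and not all of them are printed. The members and lists were chosen with earlier results of these data known.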

Additional observations from a re-analysis of the deposited data

Results flagged for a closer look

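In 64 groups of 4 lambs (levels and shares of the 10 genes, their joint share and the 11 ratios, in each diet), 3 held a lamb that stood apart from the other 3 by Dixon's criterion, about as many as the 1 in 20 that chance gives. *ND2* was at 5563 CPM in SM20 lamb 2 and at 3780.0 to 4050.4 CPM in the other SM20 lambs. The ratio of *COX3* to *ATP6* was 0.925 in SM20 lamb 2 and 1.02 in each of the other SM20 lambs. The ratio of *ND3* to *ND4* was 0.437 in CON lamb 1 and 0.182 to 0.192 in the other CON lambs, where the *ND3* count was 18262 in that library against 5989 to 13107.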

How the results depend on the processing

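The count of the 10 genes past an adjusted p of 0.05 was 0 by edgeR under every scaling, without the filter and with any 1 lamb left out. Over all genes edgeR called 1 to 5 under the scalings, and 0 without the filter or with any 1 lamb left out. The 0 is therefore not particular to the 10 genes. DESeq2 called 2 of the 10, beside 446 of 7101 genes, and the cause of its difference from edgeR was not tested. At an unadjusted p under 0.05 edgeR had 3 members lower, beside 826 of all 9779 genes. With library size alone 4 were lower, beside 525 of 9779 genes, and with upper-quartile scaling 7, beside 1041 of 9779. By DESeq2 7 were lower, beside 708 genes of a total not given here. With 1 lamb left out 2 to 9 were lower, beside 645 to 879 of 9851 to 9891 genes. The 9 came without CON lamb 4, beside 714 of 9880 genes. Without SM20 lamb 2 there were 7, beside 697 of 9888 genes. Without the filter or with lambs left out 0 of all genes passed, so the side of the threshold was shared by every gene there. Of 150 fold changes of single members under the other settings 141 kept their sign and side of the threshold. Those that turned positive were *ND5* with library size alone (0.016), and *ND2* (0.061), *ND3* (0.0090) and *ND5* (0.018) without CON lambs 1 and 2, a setting added after seeing the data that also gave a difference in joint share of -1.90 percentage points. With 1 lamb left out, the count of negative members ran from 9 to 10, their median from -0.58 to -0.27, the difference in joint share from -3.21 to -2.10 percentage points, *ND2* from -0.60 to -0.25, *ND3* from -0.90 to -0.29 and *ND5* from -0.15 to 0.076. The *ND5* value was above 0 without SM20 lamb 1, CON lamb 2 or CON lamb 3. For the ratios, a single one at the smallest exact permutation p could not pass after adjustment with all 8 lambs. Without 1 lamb that smallest p is 0.0571 and none could pass. Of the 11 ratios 0 passed under any setting. Their log2 differences that changed sign ran from -0.42 to 0.0064 for *ND3* to *ND4*, from -0.046 to 0.14 for *ND2* to *ND1*, from -0.18 to 0.080 for *COX1* to *COX4I1* and from -0.042 to 0.32 for *ATP6* to *ATP5F1D*. No paired analysis was possible because the labels give the lambs no numbers shared between diets. With 4 lambs per diet, spread between lambs and not depth limits the precision, apart from *ND6*.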
